A study of Drosophila melanogaster with 21 samples.

Results

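Transcription factors of the ecdysone receptor cascade were followed through 10 genes in male wing discs that had lost a part of the dosage compensation machinery. The genes were taken by name from the 17558 genes of the deposited count table, and were chosen with earlier results of these data known. They are the receptor subunits EcR and usp, the early genes br, Eip74EF and Eip75B, and the early-late genes Eip78C, Hr3 and Hr4. The other members are ftz-f1 and Blimp-1, labelled late here, although ecdysone induces Blimp-1 and its product delays ftz-f1. The gene br (broad) stands in the table under an older FlyBase identifier, FBgn0000210, which the reference annotation now lists as FBgn0283451. All 10 genes passed the filter on low counts.

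Ecdysone is the steroid hormone that times moulting and metamorphosis in insects. It binds a heterodimer of EcR and Usp, which switches on early genes encoding transcription factors. These in turn act with the receptor on early-late genes and then on late genes, so that the levels of these factors change in a fixed order through the last larval instar and into the prepupa. In imaginal discs this order accompanies the passage from larval growth to eversion of the appendage.

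The libraries hold poly-A RNA from wing imaginal discs, the epithelial sacs of the larva that form the adult wing and notum, dissected from male third-instar larvae reared at 25 °C. Mutants were homozygous for the allele msl-2.227 (4 libraries), msl-1.L60 (3 libraries) or mle.9 (3 libraries), or carried the double mutation roX1.SMC17A with roX2Δ (3 libraries), and the labels call them null mutants. The genes msl-2 and msl-1 encode the core of the MSL complex, which raises transcription of the single male X, mle encodes its RNA helicase, and roX1 and roX2 are its non-coding RNAs. Heterozygous larvae of the msl-2 stock (3 libraries), the msl-1 stock (3 libraries) and the mle stock (2 libraries) carried CyO-GFP, a balancer form of chromosome 2 marked with GFP. The mutants lack the balancer, so its presence and the genotype cannot be told apart. No control group of the roX1 roX2 stock was analysed here, and the roX1 roX2 mutants were compared with the mean of the 3 heterozygous groups, whose libraries also serve the other comparisons. The labels give the instar but no age in hours, and they do not say whether replicates came from separate cultures, so p-values measure the spread between these libraries only.

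Total counts ran from 830905 to 4131600 per library, with a median of 2458046. Replicate 2 of the msl-1 heterozygous group stood apart: it had the lowest total, 6.17% of its counts on mitochondrial genes and a median correlation of 0.713 with its own group, against 0.822 to 0.986 for the other libraries. Its summed level of neuron and glia markers was 544 CPM, against at most 195 CPM in any other group. Salivary gland (121 CPM) and testis and germline sums (71.5 CPM) were also high, against at most 30.4 and 17.7 CPM in other groups. This library had the lowest sums of wing disc (729 CPM) and trachea markers (268 CPM). Each call is therefore also given for the 20 libraries without it. The wing disc markers summed to 729 to 1744 CPM over all libraries. Fat body markers reached 5323 CPM in 1 msl-2 mutant library and gut markers 3329 CPM in 1 roX1 roX2 mutant library, and the part of other tissues in the results was not tested. Of the targeted genes, roX2 was listed at 0 in all roX1 roX2 mutant libraries and lay between 13.9 and 378 CPM in heterozygous ones, and roX1 spanned 37.5 to 70.6 CPM in roX1 roX2 mutants, against 526 to 3747 CPM in heterozygous libraries. The msl-2 RNA averaged 54.7 ± 4.2 CPM in msl-2 mutants and 104 ± 9 CPM in msl-2 heterozygous discs (SD, n = 4 and 3). RNA of the other targeted genes was not lower in their mutants: msl-1 averaged 135 ± 20 CPM in msl-1 mutants and 69.5 ± 40.7 CPM in msl-1 heterozygous discs (SD, n = 3 each), and mle averaged 234 ± 14 CPM in mle mutants and 147 ± 0.4 CPM in mle heterozygous discs (SD, n = 3 and 2). The labels do not say whether these alleles remove the RNA, so counts of msl-1 and mle themselves do not check these labels. The roX2 RNA was low in the other mutants too, at 0 to 0.78 CPM in msl-1, 1.30 to 2.85 CPM in mle and 1.57 to 3.69 CPM in msl-2 mutants. The roX1 RNA spanned 112 to 141 CPM in msl-1 and 62.1 to 130 CPM in mle mutants, but 1585 to 1936 CPM in msl-2 mutants.

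Levels below are CPM (read counts scaled to a common library size), set with factors from genes of the major autosomes (chromosomes 2 and 3). Changes are log2 fold changes of a mutant over its heterozygous group, with the standard error of edgeR's quasi-likelihood test. A gene was called higher or lower at a Benjamini-Hochberg adjusted p under 0.05 over all genes tested.

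The early-late gene Eip78C was lower in each of the 4 mutants, and Hr4, another early-late gene, had the same calls in the 21 libraries. Blimp-1 fell in 3 of them, those of msl-1, of mle and of roX1 roX2, and all the early genes and Hr3 fell as well in msl-1 mutants. The receptor genes and ftz-f1 were not called in any of these comparisons. Of the 10 genes, 2 were lower in msl-2 mutants, where 0.648% of all genes tested were lower. In msl-1 mutants 7 were lower, where 25.4% of all genes tested were lower. In mle mutants 3 were lower, against 1.97% of all genes, and in roX1 roX2 mutants 3, against 1.93%.

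No member was called higher in any of the 4 comparisons, with edgeR or with DESeq2. At an unadjusted p under 0.05, ftz-f1 alone was higher, in msl-2 mutants. Members lower at that level numbered 5 in msl-2 mutants and 7 in each of the others. Counted in either direction, 1479 of the 11420 genes tested reached that level in msl-2 mutants, but 5739 did in msl-1 mutants. In mle mutants 1505 genes reached it, and in roX1 roX2 mutants 1800. Of all genes, 0.560% were called higher in the msl-2 comparison, 12.8% in that of msl-1, 1.38% in that of mle and 3.41% in that of roX1 roX2. The median log2 fold change of the 10 genes was -0.84 in msl-2 mutants, where the median of all genes was 0.005. It was -1.62 in msl-1 mutants against -0.17 for all genes, -1.07 in mle mutants against -0.08, and -0.91 in roX1 roX2 mutants against -0.10.

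Counted by ranges over the 21 libraries, 4 members had all msl-2 mutants below all msl-2 heterozygous libraries (17.1% of all genes did), 7 in the msl-1 stock (18.6%), 8 in the mle stock (22.5%) and 2 in roX1 roX2 mutants against all heterozygous libraries (2.08%). With mutants above, there was 1 member, ftz-f1, in the mle stock (12.8% of all genes) and 0 in the msl-2 stock (10.2%), the msl-1 stock (18.8%) and roX1 roX2 mutants (2.95%).

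In the 20 libraries the genes called lower were 4 in msl-2 mutants (7.62% of all genes), 5 in msl-1 mutants (12.7%), 5 in mle mutants (8.96%) and 5 in roX1 roX2 mutants (7.56%). The broad gene br and Blimp-1 joined the calls in msl-2 mutants, br and Hr3 in mle mutants, and br and Eip75B in roX1 roX2 mutants. No member was higher, against 3.07%, 10.4%, 4.06% and 6.81% of all genes in the 4 comparisons, and ftz-f1 alone was higher at an unadjusted p under 0.05, in all but mle mutants. At that level, in either direction, were 2964, 3745, 2510 and 2706 of the 10367 genes tested, in the same order. Hr3 and Hr4 were no longer called in msl-1 mutants. 

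Markers of cell types moved as well. Over the 21 libraries 4 of 8 wing disc markers were lower and 1 was higher in msl-1 mutants, and 5 of 6 neuron and glia markers were lower there, where 25.4% of all genes were lower and 12.8% higher. In the 20 libraries these counts were 6 lower and 0 higher of the wing disc markers and 4 lower of the neuron and glia markers, against 12.7% of all genes lower. In mle mutants 1 of the 8 wing disc markers was lower over the 21 libraries, against 1.97% of all genes, and 5 were lower over the 20 libraries, against 8.96%. The summed level of 4 trachea markers was 1272 to 2512 CPM in msl-1 mutants, against 268 to 1138 CPM in msl-1 heterozygous discs, while mutant and heterozygous ranges overlapped in the msl-2 and mle stocks, and the other heterozygous groups spanned 1815 to 2220 CPM. The lowest value, 268 CPM, was that of msl-1 heterozygous replicate 2. Of these trachea markers 3 were higher and 1 lower in msl-1 mutants over the 21 libraries and 0 were called over the 20 libraries. The part of these differences in the calls was not tested.

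**Figure D1:**
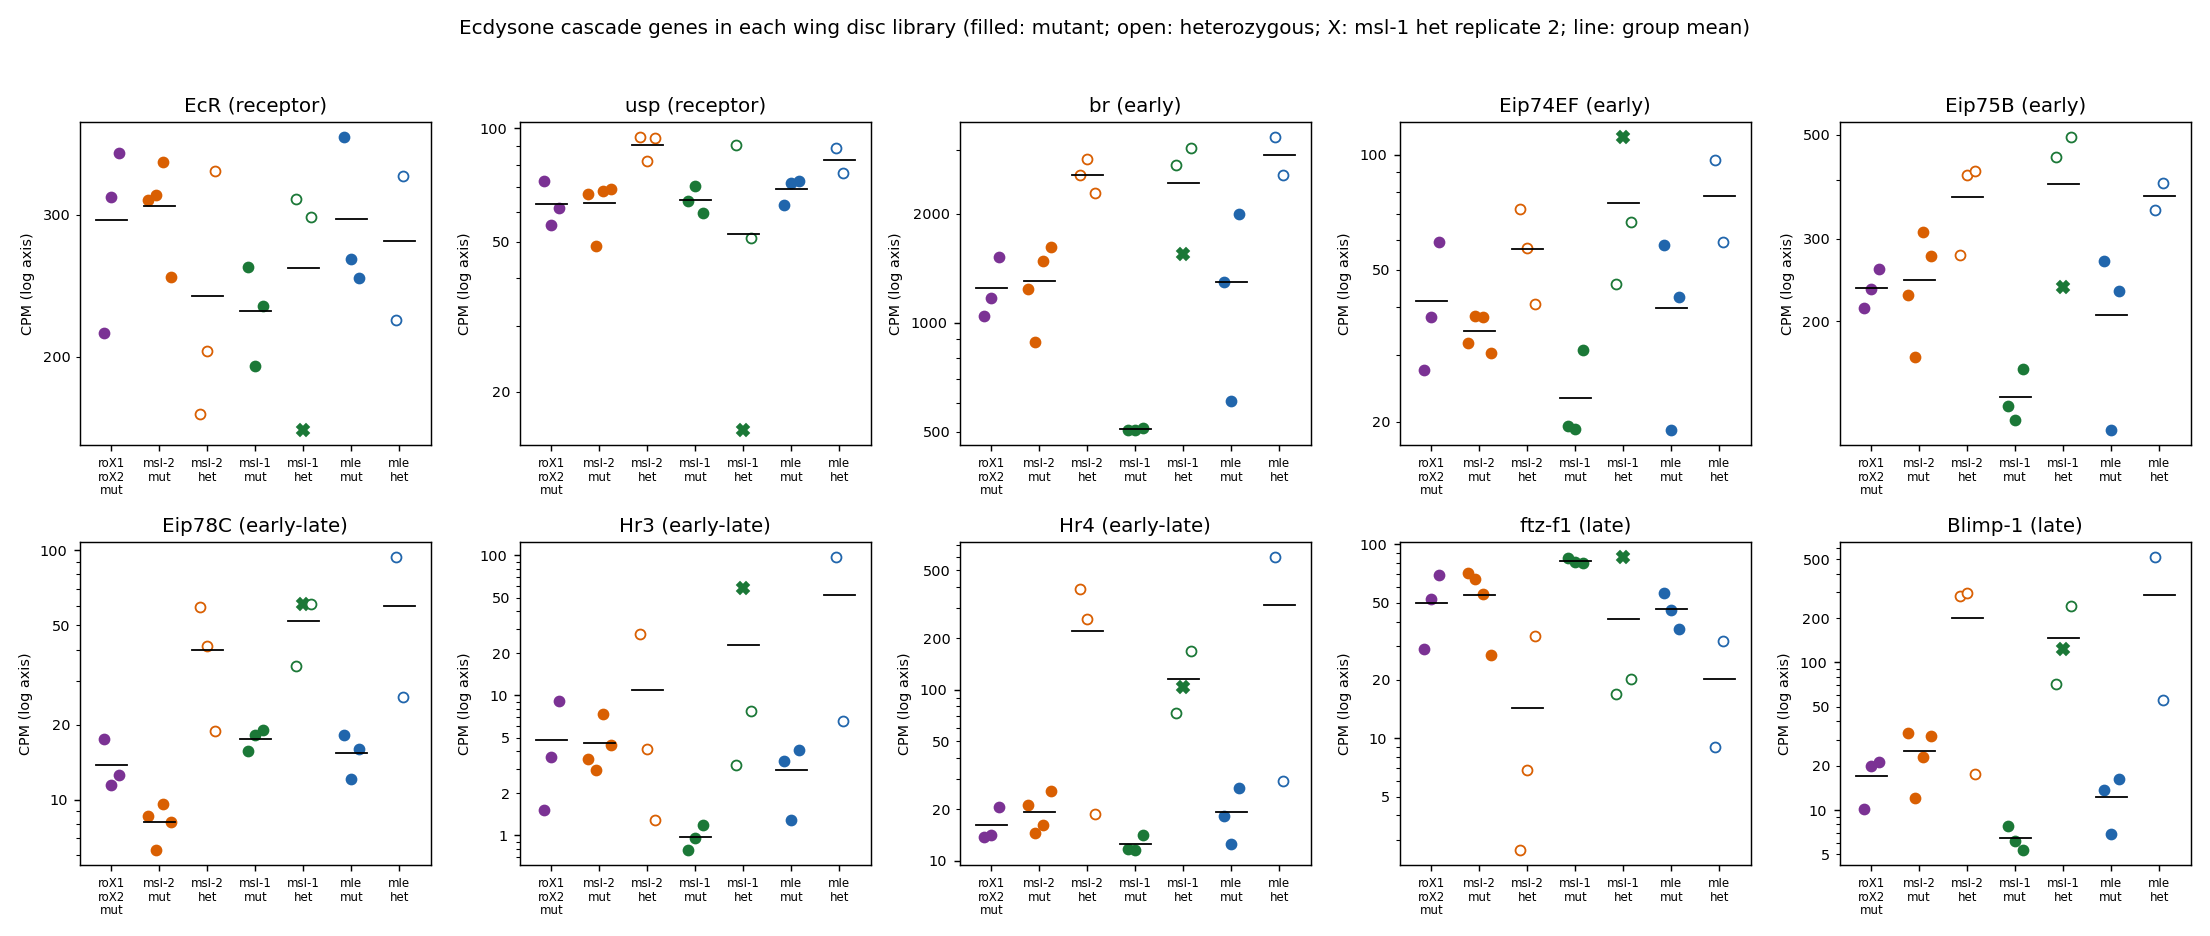
CPM (log axis) of each of the 10 genes in each library, by group, with mutants filled, heterozygous libraries open, msl-1 heterozygous replicate 2 as a cross and the group mean as a line. In the panels of br, Eip78C, Hr4 and Blimp-1 all but 1 of the 8 heterozygous libraries lie above all 13 mutant libraries. For usp and Eip75B 6 of the 8 do, while ftz-f1 is high in the mutants and the ranges of EcR overlap.

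The receptor genes showed the smallest changes. EcR (2R:6087873-6169087, minus strand), which encodes the hormone-binding subunit, ran from 195 to 375 CPM over the 13 mutant libraries, with a median of 265 CPM. In the 8 heterozygous libraries it ran from 162 to 341 CPM, with a median of 260 CPM. The ranges overlap almost entirely, and log2 fold changes lay between -0.18 ± 0.32 in msl-1 mutants and 0.37 ± 0.30 in msl-2 mutants, with adjusted p of 0.582 or more. The count table does not separate the EcR isoforms.

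The partner gene usp (X:2038798-2042311, minus strand) encodes the RXR homologue that EcR needs to bind DNA. It ran from 48.8 to 72.6 CPM in the mutants, with a median of 67.0 CPM, and from 15.8 to 94.9 CPM in the heterozygous libraries, with a median of 85.3 CPM. The lowest heterozygous value is that of msl-1 replicate 2, and 6 of the 8 heterozygous libraries lie above all mutants. All 4 msl-2 mutant libraries lay below all msl-2 heterozygous ones, with a log2 fold change of -0.52 ± 0.30 (adjusted p = 0.472), and all mle mutant libraries below both mle heterozygous ones, at -0.26 ± 0.36 (adjusted p = 0.955). In the 20 libraries the msl-2 value was -0.48 ± 0.16 (adjusted p = 0.0536). In msl-1 mutants usp was 0.29 ± 0.34 over the heterozygous group, a sign set by replicate 2 of that group. Without that library it was -0.17 ± 0.20, and without msl-1 heterozygous replicate 1 it was called higher, at 0.93 (adjusted p = 0.0151).

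usp, br and Hr4 are X-linked, and the median X gene moved as well: over the 21 libraries its log2 fold change was -0.34 (msl-2 mutants), -0.30 (msl-1 mutants), -0.59 (mle mutants) and -0.32 (roX1 roX2 mutants), against 0.05, -0.14, -0.01 and -0.06 for genes of the major autosomes. Over the 20 libraries the X medians were -0.33, -0.44, -0.57 and -0.34 in the same order, against 0.04, -0.05, 0.02 and 0.01. The part of this shift in the values of usp, br and Hr4 was not tested. Exons of usp overlap those of Actn on the same strand and of CG4313 on the other, and the strand setting of the counting is not given in the sources used here, so reads of these genes may be shared.

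Among the early genes, br was the most abundant and showed the largest change. It encodes BTB zinc finger proteins that direct the switch from larval to pupal programmes (X:1575132-1664869, plus strand). It measured 506, 505 and 514 CPM in msl-1 mutants, against 2724, 1545 and 3038 CPM in msl-1 heterozygous discs. The msl-1 mutant libraries hardly differed among themselves and all lay far below their heterozygous group, whose lowest value was that of replicate 2. The log2 fold change was -2.26 ± 0.42 (adjusted p = 0.000839), and -2.55 ± 0.32 in the 20 libraries (adjusted p = 9.69e-06). The call held with any 1 of the 21 libraries left out.

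In msl-2 mutants br measured 1239, 885, 1479 and 1619 CPM, against 2553, 2832 and 2286 CPM in msl-2 heterozygous discs. The mle mutants had 1299, 610 and 1991 CPM, against 3255 and 2553 CPM in mle heterozygous discs. The groups do not overlap in either stock. The log2 fold changes were -0.97 ± 0.37 in msl-2 mutants (adjusted p = 0.256) and -1.16 ± 0.44 in mle mutants (adjusted p = 0.195).

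In roX1 roX2 mutants br measured 1044, 1173 and 1520 CPM, all below every heterozygous library, at a log2 fold change of -1.08 ± 0.35 (adjusted p = 0.0866). In the 20 libraries br fell by 0.93 ± 0.26 in msl-2 mutants (adjusted p = 0.0286), by 1.13 ± 0.31 in mle mutants (adjusted p = 0.0182) and by 1.14 ± 0.25 in roX1 roX2 mutants (adjusted p = 0.00446). The msl-2 and mle groups do not hold msl-1 heterozygous replicate 2, but all groups share one estimate of the spread, whose common biological coefficient of variation was 0.362 with that library and 0.210 without it. DESeq2 called br over the 21 libraries in mle mutants (adjusted p = 0.0318) and in roX1 roX2 mutants (adjusted p = 0.00129), and edgeR called it in msl-2 mutants when fitted on that stock alone (adjusted p = 0.00967). Exons of br overlap those of Mur2B on the other strand, which measured 8.63 to 43.2 CPM in mutants and 45.9 to 98.5 CPM in heterozygous libraries.

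Eip74EF encodes ETS-domain activators (3L:17558672-17619325, minus strand). It measured 19.5, 19.1 and 30.8 CPM in msl-1 mutants, against 45.8, 111 and 66.6 CPM in msl-1 heterozygous discs, with no overlap. The log2 fold change was -1.68 ± 0.39 (adjusted p = 0.0045), and -1.34 ± 0.41 in the 20 libraries (adjusted p = 0.0256). Fitted on the msl-1 groups alone, the value was -2.14 (adjusted p = 0.0736).

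In the other mutants Eip74EF spanned 30.3 to 37.9 CPM in msl-2, 19.0 to 58.1 CPM in mle and 27.4 to 59.1 CPM in roX1 roX2 discs. The heterozygous groups spanned 40.8 to 72.1 CPM in the msl-2 stock and 59.1 to 96.9 CPM in the mle stock. The log2 fold changes were -0.71 ± 0.34, -0.98 ± 0.40 and -0.75 ± 0.31 in msl-2, mle and roX1 roX2 mutants, and none passed the test, in 21 or in 20 libraries.

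Eip75B encodes heme-binding nuclear receptors that can block the activity of Hr3 (3L:17950953-18064696, minus strand). It measured 132, 123 and 159 CPM in msl-1 mutants, against 449, 237 and 494 CPM in msl-1 heterozygous discs. No mutant library reached the heterozygous range, and the log2 fold change was -1.51 ± 0.33 (adjusted p = 0.00331), or -1.83 ± 0.28 in the 20 libraries (adjusted p = 7.63e-05). In msl-2 mutants its 4 values of 168 to 310 CPM overlapped the 277 to 418 CPM of the heterozygous discs, at -0.59 ± 0.30.

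In mle mutants Eip75B spanned 117 to 268 CPM, below the 345 and 394 CPM of mle heterozygous discs, at a log2 fold change of -0.84 ± 0.36 (adjusted p = 0.282). The roX1 roX2 mutants had 213, 234 and 258 CPM, at -0.68 ± 0.28 (adjusted p = 0.21), and passed in the 20 libraries, at -0.76 ± 0.22 (adjusted p = 0.0225). Isoforms of Eip74EF and Eip75B, which respond to the hormone at different doses and times, share one count per gene here.

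Among the early-late genes, Eip78C and Hr4 were called in all 4 comparisons. Eip78C, an orphan nuclear receptor related to Eip75B (3L:21226609-21266503, plus strand), measured 8.61, 6.25, 9.59 and 8.13 CPM in msl-2 mutants, against 59.3, 41.4 and 18.8 CPM in msl-2 heterozygous discs. In msl-1 mutants it measured 15.6, 18.2 and 18.9 CPM, against 34.2, 60.7 and 60.8 CPM in msl-1 heterozygous discs. The mle mutants had 18.2, 12.1 and 15.97 CPM, against 93.9 and 25.8 CPM in mle heterozygous discs. All mutants of each stock lay below all their heterozygous libraries, and the lowest heterozygous library of all, msl-2 replicate 4, lay just inside the range of the msl-1 mutants.

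Eip78C fell by 2.27 ± 0.39 in msl-2 mutants (adjusted p = 0.00329), by 1.55 ± 0.41 in msl-1 mutants (adjusted p = 0.00953) and by 1.96 ± 0.43 in mle mutants (adjusted p = 0.0121). The roX1 roX2 mutants, with 17.5, 11.5 and 12.5 CPM, fell by 1.82 ± 0.36 against the mean of the heterozygous groups (adjusted p = 0.00308). All 4 calls stood in the 20 libraries. The msl-2 call was lost without msl-2 heterozygous replicate 1 (-1.87, adjusted p = 0.0588). The mle call was lost without mle heterozygous replicate 1 (-0.76, adjusted p = 1) or mle mutant replicate 2 (-1.81, adjusted p = 0.0792). The calls in msl-1 and roX1 roX2 mutants held with any 1 of the 21 libraries left out. In fits of the compared groups alone Eip78C was not called in mle (-1.95, adjusted p = 0.113) or roX1 roX2 mutants (-1.82, 0.06). In whole discs, fewer cells that express a gene and less of its RNA per cell cannot be told apart.

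Hr4 encodes a nuclear receptor that represses early genes and is needed for full induction of ftz-f1 (X:1941940-2007956, plus strand). It measured 21.1, 14.6, 16.2 and 25.5 CPM in msl-2 mutants, against 387, 258 and 18.8 CPM in msl-2 heterozygous discs. Replicate 4 of the heterozygous group lay inside the mutant range, far below its other replicates. In mle mutants Hr4 measured 18.2, 12.5 and 26.7 CPM, against 598 and 29.2 CPM in mle heterozygous discs, and replicate 2 of that group lay just above the highest mutant.

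In msl-1 mutants Hr4 measured 11.7, 11.5 and 14.2 CPM, against 72.7, 104 and 169 CPM in msl-1 heterozygous discs, with no overlap. The roX1 roX2 mutants had 13.7, 14.1 and 20.7 CPM. Over all stocks 7 of the 8 heterozygous libraries lay above all 13 mutants.

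Hr4 fell by 3.51 ± 0.82 in msl-2 mutants (adjusted p = 0.048), by 3.21 ± 0.97 in msl-1 mutants (adjusted p = 0.0199), by 4.02 ± 0.98 in mle mutants (adjusted p = 0.0315) and by 3.64 ± 0.88 in roX1 roX2 mutants (adjusted p = 0.0204). The calls are fragile. In msl-2 mutants the call was lost with 16 of the 21 single libraries left out: at -2.83 without msl-2 heterozygous replicate 1 (adjusted p = 0.292), without msl-2 heterozygous replicate 2 (0.161), without any msl-2 mutant library (0.0767 to 0.152), and without any of 10 libraries of other groups (0.0508 to 0.0644).

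In mle mutants the Hr4 difference was -0.62 without mle heterozygous replicate 1 (adjusted p = 1), and the call was also lost without each mle mutant library (adjusted p of 0.0631 to 0.153). In msl-1 mutants the Hr4 call was lost without each msl-1 mutant library (0.05 to 0.0712) and without msl-1 heterozygous replicate 2 (-3.34, adjusted p = 0.0596). In roX1 roX2 mutants the Hr4 call was lost without mle heterozygous replicate 1 (-2.42, adjusted p = 0.0536) and without each roX1 roX2 library (0.0717 to 0.104). Fitted on the compared groups alone, Hr4 was not called in msl-2 (0.0823), mle (0.267) or roX1 roX2 mutants (0.0953). With no filter on low counts it was not called in those 3 either (0.102, 0.085 and 0.0501). The sign of these Hr4 differences was negative in every setting tried. Exons of Hr4 overlap PIG-K on the other strand, which spanned 28.1 to 51.2 CPM in mutants and 6.96 to 70.2 CPM in heterozygous libraries.

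Hr3 encodes the nuclear receptor that activates ftz-f1 (2R:10203995-10237348, minus strand) and was weakly expressed in most libraries. It measured 0.782, 0.957 and 1.18 CPM in msl-1 mutants, against 3.16, 58.2 and 7.72 CPM in msl-1 heterozygous discs. In mle mutants it measured 3.42, 1.30 and 4.09 CPM, against 97.2 and 6.53 CPM in mle heterozygous discs. In msl-2 mutants it measured 3.52, 2.92, 7.38 and 4.43 CPM, against 27.2, 4.18 and 1.29 CPM in msl-2 heterozygous discs. Each heterozygous group held a single library far above the others, and in the msl-2 stock the groups overlap.

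Hr3 fell by 4.46 ± 1.36 in msl-1 mutants (adjusted p = 0.0191). Without msl-1 heterozygous replicate 2 the difference was -2.47 ± 1.62 (adjusted p = 0.289), and the call was also lost without each msl-1 mutant library (0.0531 to 0.0736) and with no filter on low counts (-3.85, adjusted p = 0.0655). In mle mutants the value was -4.12 ± 1.20 (adjusted p = 0.0694). The gene passed there with DESeq2 (-4.04, adjusted p = 0.015), and with edgeR without msl-1 heterozygous replicate 2 (adjusted p = 0.0262), without msl-2 heterozygous replicate 1 (0.0345) or 4 (0.0473), or without mle heterozygous replicate 2 (-5.04, adjusted p = 0.033), and it was at -1.16 without mle heterozygous replicate 1. In msl-2 mutants the value was -1.21 ± 0.98 and turned to 0.76 without msl-2 heterozygous replicate 1. The roX1 roX2 mutants, with 1.52, 3.65 and 9.13 CPM, were at -2.34 ± 0.98 (adjusted p = 0.227). Exons of Hr3 overlap CG12912, CG46321 and lncRNA:CR46322 on the same strand.

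**Figure D2:**
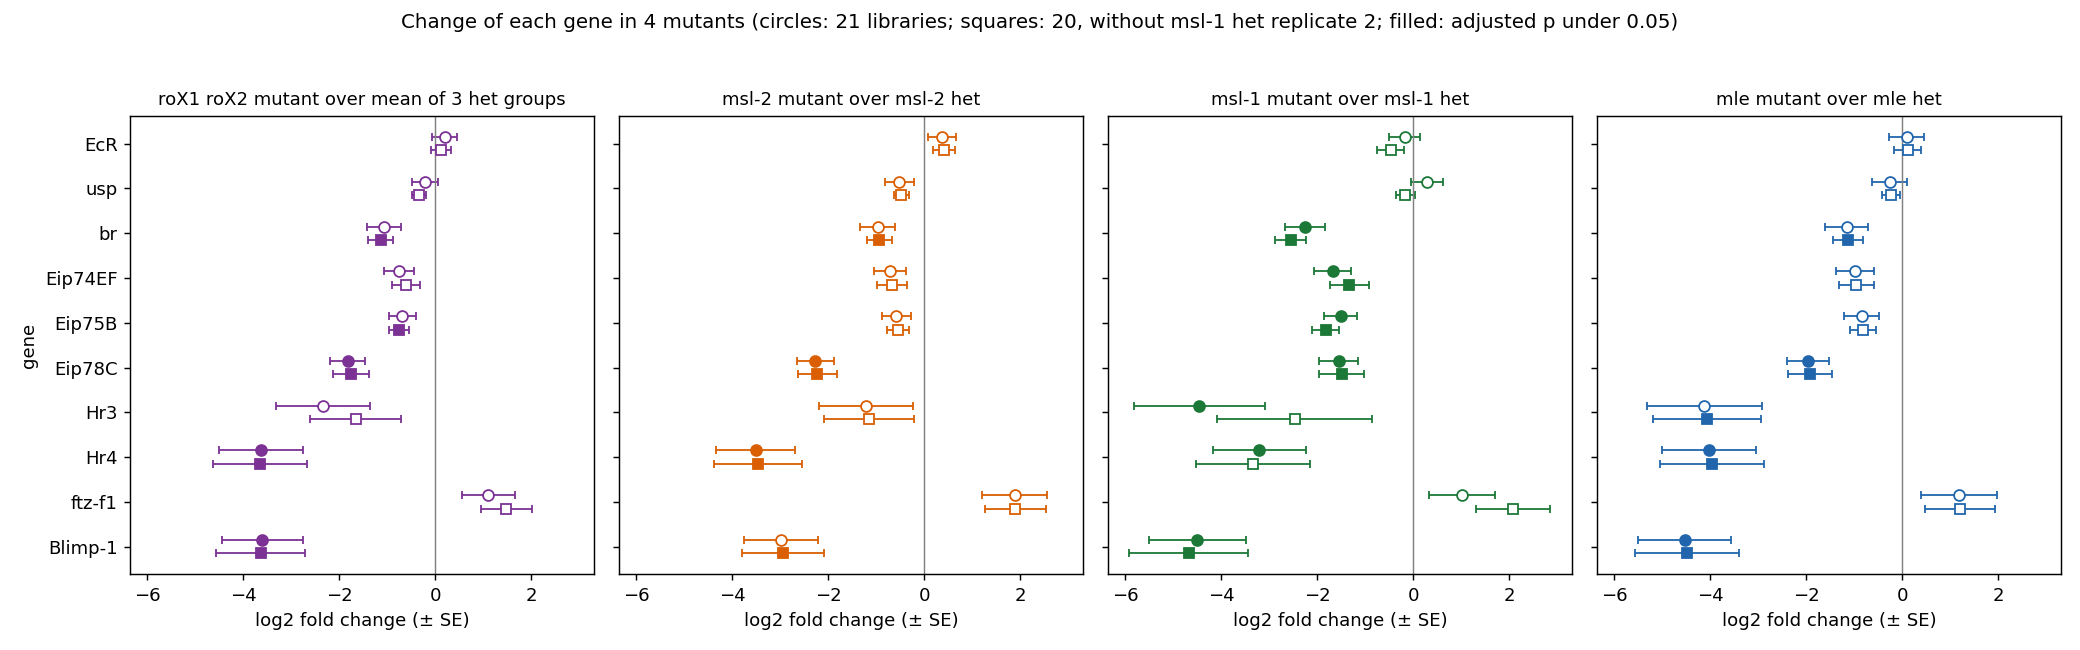
Log2 fold change (horizontal axis, with SE) of each gene in the 4 mutants, over 21 libraries (circles) and over 20 libraries without msl-1 heterozygous replicate 2 (squares), filled where the adjusted p is under 0.05. Over 21 libraries Hr4 and Blimp-1 lie furthest to the left in the msl-2 and roX1 roX2 panels and Blimp-1 and Hr3 in the msl-1 and mle panels, and ftz-f1 lies to the right of 0 in each panel with no filled symbol.

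Blimp-1 encodes a zinc finger repressor that ecdysone induces and that delays the expression of ftz-f1 (3L:5630983-5652094, plus strand). It measured 7.82, 6.22 and 5.32 CPM in msl-1 mutants, against 71.6, 124 and 240 CPM in msl-1 heterozygous discs. In discs of mle mutants the level was 13.7, 6.91 and 16.3 CPM, against 517 and 55.7 CPM in mle heterozygous discs. In msl-2 mutants it measured 33.3, 12.1, 22.9 and 31.8 CPM, against 284, 295 and 17.5 CPM in msl-2 heterozygous discs. The groups do not overlap in the msl-1 and mle stocks, and in the msl-2 stock replicate 4 of the heterozygous group again lay inside the mutant range.

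Blimp-1 fell by 4.50 ± 1.01 in msl-1 mutants (adjusted p = 0.00529), a call that held with any 1 library left out. It fell by 4.53 ± 0.97 in mle mutants (adjusted p = 0.0141). That call was lost without mle heterozygous replicate 1 (-2.19, adjusted p = 1) or without mle mutant replicate 1 (0.0531) or 2 (0.0881). The roX1 roX2 mutants, with 10.1, 19.8 and 21.1 CPM, fell by 3.60 ± 0.84 (adjusted p = 0.0154). Their call was lost without mle heterozygous replicate 1 (-2.73, adjusted p = 0.057) or any roX1 roX2 library (0.0592 to 0.0756). In fits of the compared groups alone Blimp-1 was not called in mle (-4.52, adjusted p = 0.16) or roX1 roX2 mutants (-3.57, 0.0763).

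In msl-2 mutants Blimp-1 was at -2.98 ± 0.77 (adjusted p = 0.0764). It passed without msl-2 heterozygous replicate 4 (-3.52, adjusted p = 0.00358), without mle heterozygous replicate 1 (0.0405) or 2 (0.025), and without msl-1 heterozygous replicate 2 (-2.94, adjusted p = 0.0421). DESeq2 called it over the 21 libraries (-2.92, adjusted p = 0.00219), and so did edgeR without robust dispersion (0.0343).

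The nuclear receptor gene ftz-f1, which gives discs and other tissues the competence to respond to the prepupal pulse of hormone (3L:18750607-18801309, minus strand), ran the other way. It measured 71.3, 66.7, 55.3 and 27.0 CPM in msl-2 mutants, against 2.64, 6.83 and 33.6 CPM in msl-2 heterozygous discs. In mle mutants it measured 56.4, 45.8 and 36.8 CPM, against 9.00 and 31.6 CPM in mle heterozygous discs. In msl-1 mutants it measured 85.2, 80.8 and 80.4 CPM, against 16.9, 86.0 and 20.3 CPM in msl-1 heterozygous discs. The mutants lay above their heterozygous libraries in the mle stock, while msl-2 heterozygous replicate 4 and msl-1 heterozygous replicate 2 overlapped the mutants of their stocks.

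No ftz-f1 value passed the test. The log2 fold changes were 1.88 ± 0.68 in msl-2 mutants (adjusted p = 0.239), 1.02 ± 0.68 in msl-1 mutants (adjusted p = 0.235), 1.19 ± 0.79 in mle mutants (adjusted p = 0.656) and 1.11 ± 0.55 in roX1 roX2 mutants (adjusted p = 0.352), which had 28.9, 52.2 and 69.2 CPM. In the 20 libraries they were 1.90 ± 0.63, 2.09 ± 0.77, 1.21 ± 0.73 and 1.48 ± 0.53, with adjusted p of 0.067 or more. Without msl-2 heterozygous replicate 4 the gene was called higher in msl-2 mutants (3.50, adjusted p = 0.0204) and in roX1 roX2 mutants (1.64, adjusted p = 0.0433). Exons of ftz-f1 overlap lncRNA:CR45939 on the same strand.

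The cascade genes also varied within the heterozygous groups, and the libraries concerned were the same for several genes. In msl-2 heterozygous discs the highest library had 20.6 times the Hr4 of the lowest, 16.9 times the Blimp-1 and 21.1 times the Hr3, with replicate 4 lowest for all 3 genes. The same replicate had 12.8 times the ftz-f1 of replicate 1. In mle heterozygous discs replicate 1 had 20.5 times the Hr4, 9.29 times the Blimp-1 and 14.9 times the Hr3 of replicate 2, and replicate 2 had 3.51 times the ftz-f1 of replicate 1. In msl-1 heterozygous discs the highest library had only 2.33 times the Hr4 and 3.36 times the Blimp-1 of the lowest. There Hr3 differed 18.4 times and ftz-f1 5.10 times, with replicate 2 highest for both.

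Mutant groups varied less in Hr4 and Blimp-1 than the msl-2 and mle heterozygous groups. The highest over the lowest library for Hr4 was 1.75 (msl-2 mutants), 1.24 (msl-1 mutants), 2.14 (mle mutants) and 1.51 (roX1 roX2 mutants), and for Blimp-1 it was 2.75, 1.47, 2.37 and 2.08 in the same order. Within the msl-2 and mle heterozygous groups br differed by 1.24 and 1.28 times, Eip74EF by 1.77 and 1.64 times and Eip75B by 1.51 and 1.14 times, while mle mutant libraries differed 3.27 times in br and 3.06 times in Eip74EF, with replicate 2 lowest for both.

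**Figure D3:**
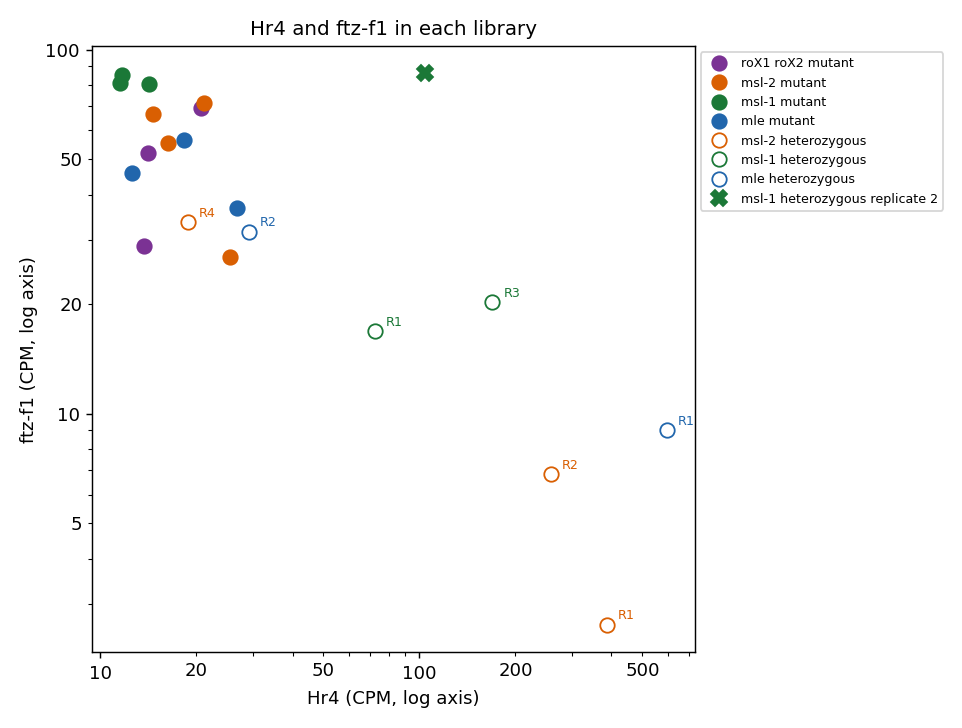
CPM of Hr4 (horizontal) and ftz-f1 (vertical) in each library on log axes, with mutants filled, heterozygous libraries open and labelled by replicate, and msl-1 heterozygous replicate 2 as a cross. All 13 mutants lie at 26.7 CPM of Hr4 or less and 27.0 CPM of ftz-f1 or more, next to msl-2 replicate 4 and mle replicate 2, while the other heterozygous libraries reach high Hr4 with low ftz-f1, apart from msl-1 replicate 2, which is high in both.

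Between heterozygous groups no member was called in any of the 3 pairings. The background shares were 26.5% of all genes higher and 15.9% lower in msl-1 against msl-2 heterozygous discs, 0.114% and 0.175% in mle against msl-2, and 0.0350% and 0.0525% in msl-1 against mle. At an unadjusted p under 0.05 there was 1 member in msl-1 against msl-2 (usp, lower), 1 in mle against msl-2 (Hr3, higher, at 2.28 ± 1.08 with an adjusted p of 0.84) and 0 in msl-1 against mle. Of the 11420 genes tested, 6194, 672 and 2604 were at that level in these pairings. The Hr3 value turned to -0.76 without mle heterozygous replicate 1. DESeq2 called 1 member in the first pairing, where it called 3827 of all genes higher and 1609 lower. It called 0 members in the others, where 28 and 371 genes were higher and 36 and 109 lower. No member was called by edgeR in the 20 libraries, where 4.04% of all genes were higher and 6.34% lower in the first pairing, 0.415% and 0.357% in the second, and 0.106% and 0.0965% in the last. Members at an unadjusted p under 0.05 were there 0, 1 and 1, both of them Hr3, against 3281, 1661 and 794 of the 10367 genes tested.

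The mutants were compared with each other as differences between their changes. Over 21 libraries no member was called in the msl-1 change minus the msl-2 change, where 18.8% of all genes were lower and 7.48% higher, in the mle change minus the msl-2 change (0.0263% lower and 0% higher), or in the msl-1 change minus the mle change (0.114% each way). At an unadjusted p under 0.05 there was 1 member, br, in the first of these and 0 in the others. Of the 11420 genes tested, 5037, 446 and 2322 were at that level in the same order. DESeq2 called 2 members lower in the first, where it called 3038 of all genes lower and 1198 higher. It called 0 members in the others, where 11 and 130 genes were lower and 25 and 37 higher.

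Over the 20 libraries br and Eip75B passed in the first of these differences, where 7.82% of all genes were lower and 7.22% higher. No member passed in the mle change minus the msl-2 change (0.125% lower and 0.116% higher) or in the msl-1 change minus the mle change (0.289% and 0.232%). In the msl-1 change minus the mle change br was at -1.42 ± 0.45 (adjusted p = 0.193) and Eip75B at -1.004 ± 0.393 (adjusted p = 0.283). The msl-1 change minus the msl-2 change was -1.62 ± 0.41 on the log2 scale for br (adjusted p = 0.0158) and -1.28 ± 0.36 for Eip75B (adjusted p = 0.0249). With all 21 libraries the values were -1.29 ± 0.55 for br (adjusted p = 0.0806) and -0.93 ± 0.45 for Eip75B (adjusted p = 0.115). For Hr4 the same difference was 0.30 ± 1.25 and for ftz-f1 -0.86 ± 0.95, errors that would not resolve a difference of 1 on the log2 scale.

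Set in order of level per kilobase of exon, br ranked first in all 7 groups, from a mean of 25.2 ± 0.2 CPM per kb in msl-1 mutants to 144 ± 25 CPM per kb in mle heterozygous discs (SD, n = 3 and 2). In msl-1 mutants EcR, at 22.97 ± 3.23 CPM per kb, did not differ beyond its spread from br above it or from usp below it, at 21.3 ± 1.7 CPM per kb. EcR, usp and Eip75B followed br in ranks 2 to 4 in all 4 mutant groups. The gene ftz-f1 ranked 5 in each mutant group, at 9.57 ± 0.31 CPM per kb in msl-1, 6.42 ± 2.32 in msl-2, 5.84 ± 2.36 in roX1 roX2 and 5.40 ± 1.15 in mle discs. In the heterozygous groups it ranked 9 or 10, at 1.67 ± 1.96 CPM per kb in the msl-2, 4.78 ± 4.54 in the msl-1 and 2.37 ± 1.86 in the mle stock, and the msl-1 level was 2.16 ± 0.28 without replicate 2.

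Blimp-1 ranked 7 to 9 in the mutant groups, at 0.763 to 2.95 CPM per kb, and 2 to 5 in the heterozygous groups, at 17.2 to 33.9 CPM per kb, with SDs as large as 38.6 CPM per kb in mle heterozygous discs. Hr3 was the lowest gene in every mutant group, at 0.093 to 0.456 CPM per kb. It was also the lowest in msl-2 and msl-1 heterozygous discs, at 1.04 and 2.20 CPM per kb, and ranked 9 in mle heterozygous discs.

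Genes with the most similar pattern were named by Pearson's r of log2 CPM over the 20 libraries, as a description, since libraries of a group share their genotype. Hr4 and Blimp-1 were among the nearest genes of each other (r = 0.959), and Hr4 was nearest to alt (0.962) and also near ImpE1 (0.944). Blimp-1 was nearest to CrebA (0.965) and also near Mnt (0.950). For ftz-f1 the nearest were pigs (0.963), chinmo (0.945) and fru (0.945). The pattern of br was nearest to FBgn0029584 (0.967), Alh (0.966) and its antisense neighbour Mur2B (0.962), and Eip75B was nearest to Mur2B (0.947) and br (0.932).

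The other members had looser neighbours. Eip78C was nearest to chrb (0.908), Hr3 to sm (0.906), Eip74EF to CG15822 (0.901), usp to Coprox (0.892) and EcR to CG42750 (0.805).

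Other genes of the pathway were counted in lists, to be read against the shares of all genes over the same 21 libraries, which in msl-1 mutants were 25.4% lower and 12.8% higher and in the other mutants at most 1.97% lower and 3.41% higher. Of 8 tested genes of hormone synthesis, entry and breakdown, 0 were called in msl-2, mle and roX1 roX2 mutants, and 1 was higher and 2 lower in msl-1 mutants. Of 9 receptor cofactors, 1 was higher and 1 lower in msl-1 mutants and 1 was higher in roX1 roX2 mutants. Of 16 other nuclear receptors and hormone-linked transcription factors, 1 was higher in msl-2, mle and roX1 roX2 mutants, and 2 were higher and 6 lower in msl-1 mutants. Of the delay signal Ilp8 and its receptor, 1 was higher and 1 lower in msl-1 mutants, and 1 was higher in each of the mle and roX1 roX2 mutants. Of 19 tested ecdysone-inducible effectors, 0 were called in msl-2 mutants, 3 were higher and 6 lower in msl-1 mutants, and 2 were lower in each of the mle and roX1 roX2 mutants. The median log2 fold change of the effectors was -0.31 (msl-2 mutants), -1.36 (msl-1 mutants), -0.40 (mle mutants) and -0.84 (roX1 roX2 mutants).

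The transcription factor called higher in all 4 comparisons was chinmo, a BTB zinc finger gene of the larval programme whose role in discs opposes that of br. It measured 647, 639, 390 and 199 CPM in msl-2 mutants, against 8.79, 23.2 and 87.6 CPM in msl-2 heterozygous discs. In msl-1 mutants it measured 895, 835 and 869 CPM, against 75.9, 175 and 64.7 CPM in msl-1 heterozygous discs. The mle mutants had 569, 724 and 172 CPM, against 23.4 and 98.0 CPM in mle heterozygous discs, and the roX1 roX2 mutants 485, 709 and 506 CPM. Within each stock the groups do not overlap.

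The log2 fold changes of chinmo were 3.54 ± 0.70 for msl-2 (adjusted p = 0.0143), 3.04 ± 0.70 in msl-1 (adjusted p = 0.0046), 3.01 ± 0.83 in mle (adjusted p = 0.0472) and 3.16 ± 0.51 in roX1 roX2 mutants (adjusted p = 0.00042). The msl-2 call of chinmo was lost without msl-2 heterozygous replicate 1 (0.0982) or 2 (0.112). The mle call of chinmo was lost with 16 of the 21 single libraries left out: mle heterozygous replicate 1 (2.32, adjusted p = 1) or 2 (4.38, 0.0537), mle mutant replicate 1 (0.116) or 2 (0.167), and any of 12 libraries of other groups (0.0514 to 0.063). In fits of the compared groups alone the calls of chinmo were lost in msl-2 (3.61, adjusted p = 0.0624), msl-1 (2.55, 0.0705) and mle mutants (3.01, 0.245), and the mle call was lost with a filter of 1 CPM in 3 libraries (0.0595). The 20 libraries gave the same 4 calls.

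**Figure D4:**
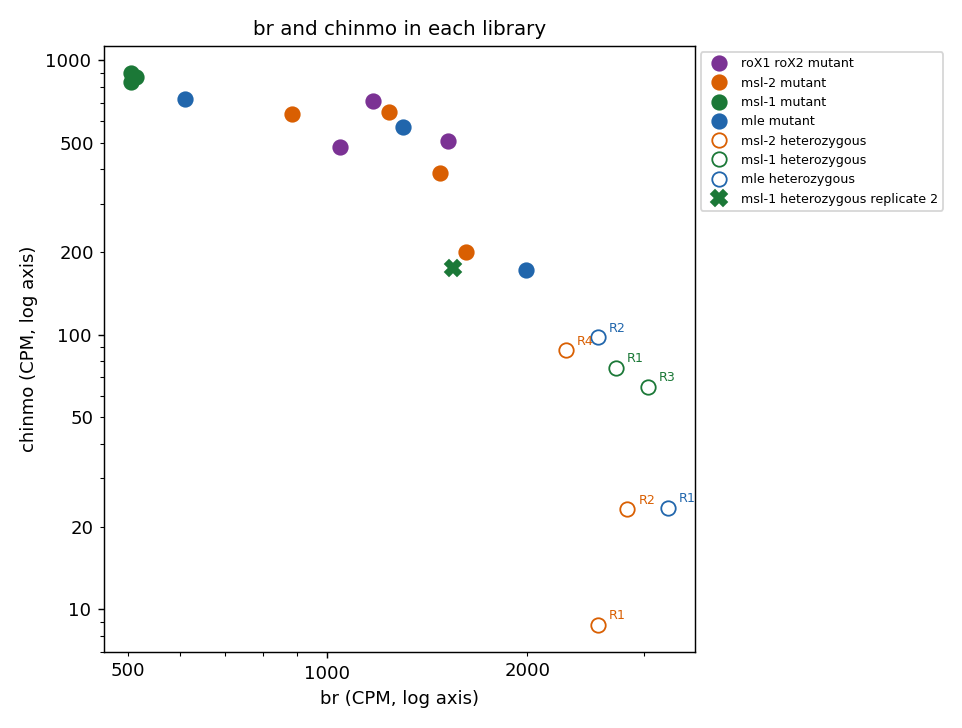
CPM of br (horizontal) and chinmo (vertical) in each library on log axes, drawn as in the plot of Hr4 and ftz-f1. The msl-1 mutants lie at the highest chinmo, from 835 to 895 CPM, with the lowest br, from 505 to 514 CPM, and msl-2 heterozygous replicate 1 has the lowest chinmo, 8.79 CPM.

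Among the effectors, Sb encodes a transmembrane serine protease needed for disc eversion. It fell by 3.04 ± 0.51 in msl-1 (adjusted p = 0.000315), by 2.57 ± 0.49 in mle (adjusted p = 0.00382) and by 1.54 ± 0.39 in roX1 roX2 mutants (adjusted p = 0.0208). Sb was at -1.13 in msl-2 mutants (adjusted p = 0.207). The mle call of Sb was lost without mle heterozygous replicate 1 (-1.47, adjusted p = 0.797), and the roX1 roX2 call of Sb without that library (-1.09, adjusted p = 0.221) or any roX1 roX2 library (0.0763 to 0.103). In fits of the compared groups alone Sb was not called in mle (0.2) or roX1 roX2 mutants (0.0546), nor in roX1 roX2 mutants against msl-2 (0.0556) or msl-1 heterozygous discs alone (0.0568).

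ImpE1, an ecdysone-inducible gene of everting discs, measured 128, 39.2, 55.0 and 159 CPM in msl-2 mutants, against 907, 626 and 103 CPM in msl-2 heterozygous discs. The mle mutants had 78.1, 73.4 and 207 CPM, against 1756 and 222 CPM in mle heterozygous discs. Replicate 4 of the msl-2 and replicate 2 of the mle heterozygous group, which were low in Hr4, were also the low ones here. In the 21 libraries ImpE1 fell by 2.56 ± 0.81 in msl-1 mutants (adjusted p = 0.0225), and it was lower in roX1 roX2 mutants, at -2.73 ± 0.75 (adjusted p = 0.0374). The msl-1 call of ImpE1 was lost without any msl-1 mutant library (0.0515 to 0.0711) or msl-1 heterozygous replicate 3 (0.0571). The roX1 roX2 call of ImpE1 was lost without mle heterozygous replicate 1 (-1.94, adjusted p = 0.24), roX1 roX2 replicate 3 (0.184) or 4 (0.151), msl-2 heterozygous replicate 1 (0.0552) or 2 (0.0538), or msl-1 heterozygous replicate 1 (0.0584) or 3 (0.0531). With no filter on low counts ImpE1 was not called in msl-1 (0.0544) or roX1 roX2 mutants (0.105), and in roX1 roX2 mutants it was not called with a filter of 1 CPM in 3 libraries (0.0784), fitted with the heterozygous groups alone (0.141), or against msl-2 (0.0707) or msl-1 heterozygous discs alone (0.0712). DESeq2 called ImpE1 lower in msl-2 (0.0332) and mle mutants (0.0164) as well.

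The nuclear receptor gene Hr39, whose product binds many of the same sites as Ftz-f1, passed edgeR's test over all groups in none of the 4 comparisons of the 21 libraries. DESeq2 called Hr39 lower in each of them (adjusted p = 0.0445 in msl-2 mutants, 0.0132 in msl-1 mutants, 0.00637 in mle mutants and 0.0154 in roX1 roX2 mutants), as did edgeR fits of single pairs for msl-2 (0.00811) and mle mutants (0.0445) and TMM factors from all genes for msl-1 mutants (0.0451). In the 20 libraries Hr39 fell by 0.80 ± 0.18 in msl-2 (adjusted p = 0.00777), by 0.99 ± 0.23 in msl-1 (adjusted p = 0.0027), by 1.11 ± 0.22 in mle (adjusted p = 0.00132) and by 0.79 ± 0.18 in roX1 roX2 mutants (adjusted p = 0.00326). The mle value of Hr39 also passed without msl-2 heterozygous replicate 4 or msl-1 heterozygous replicate 1 or 3 (0.0356 to 0.0486).

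Ilp8, a relaxin-like peptide by which discs with disturbed growth delay the ecdysone pulse, measured 695, 944 and 855 CPM in msl-1 mutants, against 0.527, 20.9 and 1.45 CPM in msl-1 heterozygous discs. In mle mutants it measured 74.1, 229 and 31.6 CPM, against 0.6 and 2.06 CPM in mle heterozygous discs. In roX1 roX2 mutants Ilp8 measured 6.85, 34.4 and 8.17 CPM, and in msl-2 mutants 3.92, 2.92, 2.95 and 5.54 CPM, against 0.439, 0.38 and 0.647 CPM in msl-2 heterozygous discs. Every msl-1, mle and msl-2 mutant library lay above the heterozygous libraries of its stock, whose values rest on few reads.

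Ilp8 rose by 6.86 ± 0.93 in msl-1 (adjusted p = 6.36e-05), by 6.37 ± 1.20 in mle (adjusted p = 0.00474) and by 3.19 ± 0.79 in roX1 roX2 mutants (adjusted p = 0.0205), and was at 2.82 ± 1.37 in msl-2 mutants (adjusted p = 0.392). The mle call of Ilp8 was lost without mle heterozygous replicate 1 (5.75, adjusted p = 0.176) and the roX1 roX2 call of Ilp8 without roX1 roX2 replicate 3 (2.10, adjusted p = 0.273). The roX1 roX2 value of Ilp8 moved with the control: it was 4.85 against msl-2 heterozygous discs alone (adjusted p = 0.0281), 3.56 against mle heterozygous discs alone (0.156) and 1.15 against msl-1 heterozygous discs alone (0.331). In fits of the compared groups alone the calls of Ilp8 were lost in msl-1 (6.22, adjusted p = 0.0537), mle (6.37, 0.133) and roX1 roX2 mutants (3.21, 0.0945). The msl-1 value of Ilp8 was 9.57 ± 1.20 in the 20 libraries.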

How the data were processed

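RNA was sequenced from 21 libraries of wing discs with a TruSeq Stranded kit, per the labels' protocols. The authors deposited 1 table of raw counts for 17558 genes, of which 17252 matched the Ensembl BDGP6 annotation used here for names and coordinates (dm6 positions). Per the submitters' processing notes, STAR 2.6.1b, featureCounts of Subread 1.6.1 and DESeq2 1.18.1 were among the tools, with no role given. The annotation release is not given in the sources used here, nor is the strand setting. Total counts of 830905 to 4131600 limit the precision of weakly expressed genes.

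All groups entered one edgeR 4.0.16 quasi-likelihood fit (R 4.3.3, robust dispersion, filterByExpr, 11420 genes), with TMM factors from genes of chromosomes 2 and 3 and Benjamini-Hochberg adjustment over all genes. It was repeated on 20 libraries (10367 genes). The SE is the absolute log2 fold change over the square root of F. The script was tested on simulated data with 200 changed genes. DESeq2 1.42.0, other factors and filters, a replicate block, single-pair fits and leaving out each library were the alternatives.

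The 10 genes, the pathway lists and the markers were chosen with earlier results of these data known. Every member was named, with the 3 genes most similar by Pearson's r among those with a mean of 5 CPM or more. Of each pathway list, up to 4 tested genes with the smallest p in a comparison could be named; of these, the ones given were picked after their values were seen.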

Additional observations from a re-analysis of the deposited data

Results flagged for a closer look

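In msl-2 mutants the usp level of replicate 2, 48.8 CPM, lay apart from the other 3 mutant libraries, with a gap of 0.895 of the group's range, past Dixon's critical value for 4 samples. Chance gives such a gap in about 1 in 20 groups, and 10 groups were examined.

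Over the 20 libraries the changes of br and Eip75B differed between msl-1 and msl-2 mutants. The msl-1 change minus the msl-2 change was -1.62 for br and -1.28 for Eip75B, and both passed the test of the difference itself, where 7.82% of all genes were lower. Neither passed that test with edgeR over the 21 libraries, nor in the msl-1 change minus the mle change.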

How the results depend on the processing

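Of 1806 single-gene values under the alternatives, 1631 kept their direction and side of the threshold, 119 lost the call, 49 gained one and 7 turned. Those kept include values that were never called, so this share does not measure how stable the calls were. Hr4 in msl-2 mutants lost its call in 21 of 28 settings and chinmo in mle mutants in 19 of 28. The call of br in msl-1 mutants was kept in all 28. Members called lower numbered 1 in msl-2 mutants with TMM factors from all genes, no filter, a filter of 1 CPM in 3 libraries, or the replicate block. In mle mutants they were 0 with the block or with each pair of groups fitted alone. With DESeq2 they were 5 there, with 396 of all genes lower. In roX1 roX2 mutants they were 0 when fitted with their controls alone. These member counts are to be read against calls over all genes, which moved as well. Across the alternatives that left out no library, genes called lower ran from 19 to 817 in msl-2 mutants. They ran from 93 to 587 in mle and from 67 to 1336 in roX1 roX2 mutants. DESeq2 called 1 member higher in msl-1 against msl-2 heterozygous discs, with 3827 of all genes higher. It called 2 lower in the msl-1 change minus the msl-2 change, with 3038 of all genes lower. The cause of these shifts was not tested.

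Leaving out 1 library gave 0 to 4 members lower in msl-2, 5 to 7 in msl-1, 0 to 5 in mle and 1 to 5 in roX1 roX2 mutants, and 0 to 1 higher in msl-2, msl-1 and roX1 roX2 mutants. It gave 0 to 1 each way in msl-1 against msl-2 heterozygous discs, 0 to 1 lower in msl-1 against mle heterozygous discs, and 0 to 2 lower and 0 to 1 higher in the msl-1 change minus the msl-2 change. Values that turned were Hr3 in msl-2 mutants (0.76 without msl-2 heterozygous replicate 1), Hr3 in mle against msl-2 heterozygous discs (-0.76 without mle heterozygous replicate 1; 4.25 at the highest) and EcR in mle mutants (-0.19 without mle heterozygous replicate 1 and -0.09 without mle mutant replicate 1; 0.40 at the highest). So did usp in msl-1 mutants (-0.17 without msl-1 heterozygous replicate 2; 0.93 at the highest) and in roX1 roX2 mutants (0 without msl-1 heterozygous replicate 1, -0.33 at the lowest, and 0.26 against msl-1 heterozygous discs alone).

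Counts over all genes moved further. In msl-2 mutants 64 genes were higher (15 to 401 under the alternatives) and 74 lower (10 to 817). In msl-1 mutants 1457 were higher (164 to 2745) and 2903 lower (278 to 3854), in mle mutants 158 higher (15 to 421) and 225 lower (15 to 929), and in roX1 roX2 mutants 389 higher (163 to 706) and 220 lower (56 to 1336). Same-numbered mutant and heterozygous libraries did not deviate together (correlations of -0.281 to 0.0933), so the numbers were not taken as pairs. With the replicate block the calls of Hr4 in msl-2 (-2.85, adjusted p = 0.382) and of Eip78C (-1.75, 0.0501), Hr4 (-3.22, 0.289) and Blimp-1 (-4.22, 0.102) in mle mutants were lost. The block also ended the calls of chinmo in msl-2 (4.12, adjusted p = 0.0525) and mle mutants (3.73, 0.059) and of ImpE1 in msl-1 mutants (-2.35, 0.06). Hr3 had 1 to 20 reads in each mutant library, so its level there is imprecise.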
